A study of Arabidopsis thaliana with 3 samples.

Results

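miR159 and miR319 are 2 related plant miRNA families, and their 6 members ath-miR159a, ath-miR159b, ath-miR159c, ath-miR319a, ath-miR319b and ath-miR319c were followed here by name among the 328 miRNAs listed for cdf2, the 338 listed for dcl1-9 and the 328 listed for Col. All 6 names were found in each of the 3 libraries, and 0 rows held the opposite strand of their hairpins. Small RNAs of 22-day-old Arabidopsis seedlings of ecotype Col were sequenced in 1 library per genotype. The libraries came from the cdf2 mutant, which carries a mutation in the Dof transcription factor gene CDF2, from dcl1-9, which makes a DCL1 protein truncated in its C-terminal double-stranded RNA-binding domains, and from the wild type, called Col. No treatment was given, the labels describe growth in soil under one photoperiod for every library, and the number of plants behind each library is not given in the sources used here. The comparison of cdf2 with Col asked which miRNAs depend on CDF2, and dcl1-9 served as the control in which miRNA processing is impaired. No mRNA of CDF2 or DCL1 was read, so the genotypes rest on the labels. With 1 library per genotype no difference has a replicate check, and every interval and test below compares libraries and covers counting error only.

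In plants a miRNA is cut by DCL1 from a hairpin precursor, and the mature strand guides an ARGONAUTE protein to a nearly complementary site in an mRNA. miR159 is known for silencing the GAMYB-like genes MYB33, MYB65 and MYB101, transcription factors that act in anthers, pollen and the seed aleurone. Plants that lose miR159a and miR159b together are stunted, with curled leaves. miR319, first known as miR-JAW, silences TCP2, TCP3, TCP4, TCP10 and TCP24, transcription factors that end cell proliferation in the leaf margin, so that plants with excess miR319 make crinkled leaves. The sequences of both families are alike, yet in Arabidopsis each is known to act mainly on its own set of targets.

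The mature sequences are shown because the whole comparison of these families turns on how few bases separate them. They were read from RefSeq for the TAIR10.1 assembly, are all 21 bases long, and have the seed, bases 2 to 8 from the 5′ end, in capitals.
ath-miR159a: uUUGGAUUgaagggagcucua
ath-miR159b: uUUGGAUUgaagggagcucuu
ath-miR159c: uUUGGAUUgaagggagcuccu
ath-miR319a: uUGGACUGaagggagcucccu
ath-miR319b: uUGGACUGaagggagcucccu
ath-miR319c: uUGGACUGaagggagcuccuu
The 3 miR159 members shared the seed UUGGAUU and the 3 miR319 members the seed UGGACUG. Within miR159 the members differed only at the 3′ end. Positions are counted from the 5′ end, and the base before the number is that of the member compared with, the base after it that of the member described. miR159b differed from miR159a by A21U (A in miR159a, U in miR159b), miR159c from miR159a by U20C and A21U, and miR159c from miR159b by U20C. In miR319, miR319c differed from miR319a by C20U, while miR319a and miR319b were the same in all 21 bases. Both families held the run UGAAGGGAGCUC of 12 bases, at positions 8 to 19 in miR159 and 7 to 18 in miR319. With miR319 shifted by 1 base, miR159a and miR319a matched at 17 of 20 positions and miR159c and miR319c at 19 of 20. The members that end most alike, miR159c and miR319c, thus differed at 1 position besides that shift, before position 8 of miR159c.

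The 6 mature strands all lay in the 3′ arm of their precursors and outside protein-coding genes. MIR159a is on the minus strand of chromosome 1, where the mature strand runs from 27713234 to 27713254, and MIR159b is on the plus strand of the same chromosome, from 6220813 to 6220833. MIR159c and MIR319c are both on the plus strand of chromosome 2, at 18994826 to 18994846 and at 17029870 to 17029890. MIR319a is on the plus strand of chromosome 4, at 12353109 to 12353129, and MIR319b on the minus strand of chromosome 5, at 16660469 to 16660489. Precursors were 172 to 225 bases long. The precursors of miR319a and miR319b are shown whole because the reads of these members differed although their mature strands, here in capitals, are the same.
MIR319a: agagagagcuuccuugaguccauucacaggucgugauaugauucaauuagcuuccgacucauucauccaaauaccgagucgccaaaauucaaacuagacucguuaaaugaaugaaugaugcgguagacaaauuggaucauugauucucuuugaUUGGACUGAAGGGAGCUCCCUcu
MIR319b: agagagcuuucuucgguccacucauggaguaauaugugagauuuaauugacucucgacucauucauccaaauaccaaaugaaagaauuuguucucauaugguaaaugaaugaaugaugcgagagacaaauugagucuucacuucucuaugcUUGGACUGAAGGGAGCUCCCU
The mature strand matched the genome perfectly at 2 places, these loci, and the bases directly beside it differed on both sides, with 0 equal flanking bases. A read of exactly 21 bases therefore cannot be assigned to one of these loci by its sequence, and the rule by which the authors split such reads is not given in the sources used here.

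The sites in the best known targets are shown so that the seeds can be set against the letters they pair with. No mRNA was measured in these libraries. The sites were found in RefSeq transcripts as the window with the fewest bases outside Watson-Crick pairs. Capitals mark the bases in Watson-Crick pairs with miR159a in the MYB genes or with miR319a in the TCP genes. Small letters hold both unpaired bases and pairs of G with U.
MYB33: UgGAGCUCCCUUCAuUCCAAu
MYB101: UAGAGCUuCCUUCAAaCCAAA
TCP4: gaGGgGucCCCUUCAGUCCAg
TCP2: caGGgGgaCCCUUCAGUCCAA
All lie in coding sequence, on TAIR10.1 at chromosome 5, 1839579 to 1839599, plus strand for MYB33; chromosome 2, 13783168 to 13783188, minus strand for MYB101; chromosome 3, 5063300 to 5063320, plus strand for TCP4; and chromosome 4, 10163402 to 10163422, minus strand for TCP2. MYB65 held the same letters as MYB33. miR159a formed 18 Watson-Crick pairs with MYB33 and 19 with MYB101. miR319a also formed 18 pairs with MYB33 but only 15 with MYB101. On the TCP side, miR319a formed 15 pairs with TCP4 and 16 with TCP2, and miR319c, through its C20U difference, 16 with TCP4 and 17 with TCP2. In TCP4 miR159a reached 13 pairs, as many at the miR319 site as at another window of the transcript. In TCP2 it reached 15, at another window. miR159c formed 15 and 16 at the miR319 sites of TCP4 and TCP2. These pairings are a description of letters. Of 31342 genes with an annotated mRNA, 7 (0.0223%) held a window with at most 3 bases outside Watson-Crick pairs with miR159a. This limit was the most among the 3 MYB genes. For miR319a, 413 (1.32%) held one with at most 6 such bases, the most among the 5 TCP genes. Pairs of G with U are counted among these bases.

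The libraries held 12.3 M reads (M for mega) in cdf2, 13.1 M in dcl1-9 and 11.5 M in Col, and levels are given in reads-per-million of these totals (RPM). One read was worth 0.0810 RPM in cdf2, 0.0764 in dcl1-9 and 0.0870 in Col. miRNAs with reads numbered 268 in cdf2, 150 in dcl1-9 and 273 in Col. The miRNA counts summed to 5248526 in cdf2, 378685 in dcl1-9 and 8833288 in Col, in which a read can stand in the count of several members of a family. Of the Col names, 308 could be joined to dcl1-9, and the 6 members were among them.

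miR159 was the more abundant family in every library. miR159a had 2347 reads in cdf2 (190 RPM, 95% interval 182 to 198), 24 in dcl1-9 (1.83 RPM, 1.18 to 2.73) and 3569 in Col (311 RPM, 301 to 321). miR159b had 1054 reads in cdf2 (85.3 RPM, 80.3 to 90.7), 4 in dcl1-9 (0.306 RPM, 0.0833 to 0.783) and 1584 in Col (138 RPM, 131 to 145). miR159c had 639 reads in cdf2 (51.7 RPM, 47.8 to 55.9), 1 in dcl1-9 (0.0764 RPM, up to 0.426) and 872 in Col (75.9 RPM, 70.9 to 81.1). The order a, b, c was thus the same in the 3 libraries, and Col held the most reads of each member. In all, miR159 had 4040 reads (327 RPM) in cdf2, 29 (2.22 RPM) in dcl1-9 and 6025 (524 RPM) in Col. Even so, it was a minor part of the summed miRNA counts, with 0.0770% in cdf2, 0.00766% in dcl1-9 and 0.0682% in Col. Since a read can enter that sum several times, these are not shares of distinct reads.

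miR319 was rarer, and miR319a and miR319b, unlike the miR159 members, were not highest in Col. miR319a had 210 reads in cdf2 (17.0 RPM, 14.8 to 19.5), 1 in dcl1-9 (0.0764 RPM) and 154 in Col (13.4 RPM, 11.4 to 15.7). miR319b had 83 reads in cdf2 (6.72 RPM, 5.35 to 8.33), 0 in dcl1-9 and 11 in Col (0.957 RPM, 0.478 to 1.71). miR319c had 6 reads in cdf2 (0.486 RPM, 0.178 to 1.06), 0 in dcl1-9 and 14 in Col (1.22 RPM, 0.666 to 2.04). cdf2 was therefore the highest library for miR319a and miR319b, and Col for miR319c. A count of 0 in dcl1-9 allows a level of up to 0.229 RPM, taken as 3 reads. The sums were 299 reads (24.2 RPM) in cdf2, 1 (0.0764 RPM) in dcl1-9 and 179 (15.6 RPM) in Col. They made up 0.00570%, 0.000264% and 0.00203% of the summed miRNA counts of those libraries.

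Within a library, most neighbours in the order of levels were separated by more than counting error. In cdf2 the order was miR159a, miR159b, miR159c, miR319a, miR319b and miR319c, and the interval of the ratio excluded 1 for each pair of neighbours. In Col the last places were taken by miR319c and miR319b, with 14 and 11 reads, which did not differ beyond counting error (ratio 1.27, 0.537 to 3.10). In dcl1-9 only miR159a stood apart from the member below it, since all other neighbours had between 0 and 4 reads. By rank among all miRNAs, miR159a was number 42 in cdf2, 56 in dcl1-9 and 41 in Col, while miR319b was number 127 in cdf2 and 197 in Col.

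**Figure D1:**
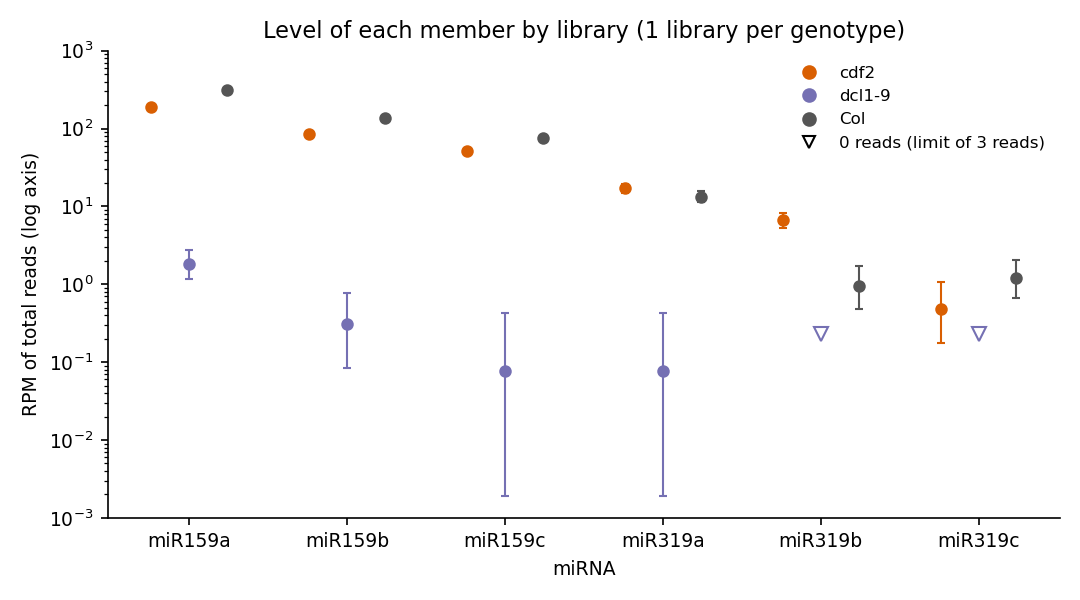
Level in RPM (log axis) of each of the 6 members in the cdf2, dcl1-9 and Col libraries, 1 library each, with 95% counting intervals; counts of 0 are drawn at the 3-read floor. The 3 miR159 members are lower in cdf2 than in Col, miR319b is higher in cdf2 (6.72 RPM) than in Col (0.957 RPM), and every member is lowest in dcl1-9.

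In cdf2 the miR159 family was lower and 1 member of miR319 was higher than in Col. Relative to Col, the level in cdf2 was 0.612 for miR159a (0.581 to 0.645), 0.619 for miR159b (0.572 to 0.670) and 0.682 for miR159c (0.615 to 0.756). A change was called at a fold of at least 1.5 with an adjusted p under 0.05 by a two-sided Fisher's exact test with Benjamini-Hochberg adjustment over all miRNAs with reads. By that rule miR159a fell 1.63-fold (adjusted p = 3.02e-77, Fisher's exact test) and miR159b fell 1.62-fold (adjusted p = 2.19e-33, same exact test). miR159c, 1.47-fold lower in cdf2 (adjusted p = 7.90e-13, exact test), lay just short of the fold required. Their ratios to one another, given below, did not differ from those in Col beyond counting error. The family sum was 0.624 of that in Col (0.599 to 0.649).

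The miR319 members went different ways. miR319b rose 7.02-fold in cdf2 (3.73 to 14.6; log2 2.81; adjusted p = 3.45e-13, Fisher's exact test). miR319a, which has the same mature sequence, was at 1.27 times its Col level (1.03 to 1.57; adjusted p = 0.0591, exact test) and was not called. miR319c, with its 6 reads in cdf2 and 14 in Col, was at 0.399 of its Col level (0.126 to 1.10; adjusted p = 0.139, exact test) and was not called either. A difference for miR319c was not detectable at this depth. The family sum was 1.55 times that in Col (1.29 to 1.88). A read counted for several members would enter a family sum more than once. The intervals of such sums, and of ratios between members, take no account of this.

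Of the 6 members, 2 fell, 1 rose and 3 were not called in cdf2, against 65 of 284 miRNAs tested (22.9%) that were lower and 18 (6.34%) that were higher by the same rule. The median log2 difference was -0.62 over the members and -0.40 over the 246 miRNAs with a fold. The miR159 members thus lay close to the bulk of the table, with 32.5% of miRNAs lower than miR159a in fold. miR319b lay near its upper end, with 98.8% of miRNAs lower in fold, and miR319c near the lower end, with 9.35% lower.

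**Figure D2:**
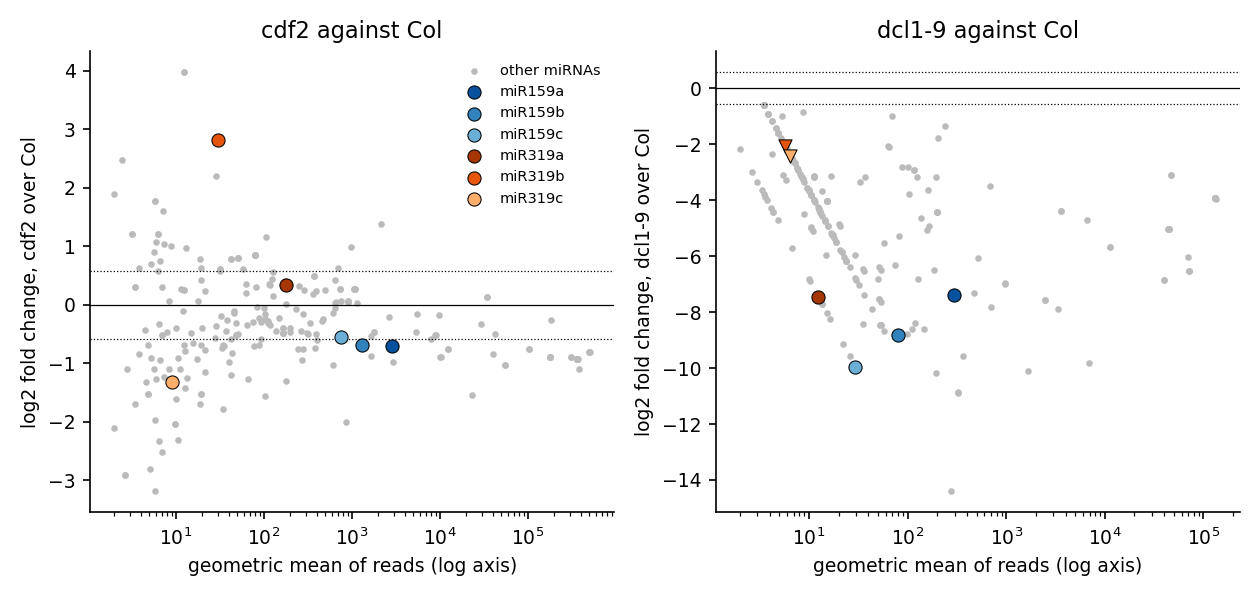
Log2 fold change of every miRNA with a fold, cdf2 over Col and dcl1-9 over Col. The horizontal log axis is the geometric mean of its reads in the mutant and in Col, with counts of 0 set at 3. The miR159 and miR319 members are marked, with triangles for members at 0 reads in dcl1-9, drawn at their bound. miR159 lies inside the cloud in cdf2 while miR319b (log2 2.81) stands above it, and in dcl1-9 the miR159 members and miR319a lie below the median of all miRNAs (log2 -4.41), while the bounds of miR319b (-2.06) and miR319c (-2.41) lie above it.

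The direction of the miR159 difference in cdf2 depended on the scale, and that of miR319b did not. miR159a was below Col on 5 of 6 scales and above it, at 1.11 times, when levels were divided by the sum of all miRNA counts, and neither it nor miR159b was called with DESeq2 size factors, TMM or edgeR's exact test at an assumed coefficient of variation of 0.2. miR319b was higher in cdf2 on all 6 scales, by 3.998-fold to 12.7-fold, and was called by edgeR's exact test at an assumed variation of 0.2 (adjusted p = 0.000281) but not at 0.4 (adjusted p = 0.342). miR319c was lower on all 6 scales, at 0.227 to 0.721 of Col, and miR319a was higher on 5 of 6 and past the rule on 3. The sum of all miRNA counts itself differed between the libraries, as given above.

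**Figure D3:**
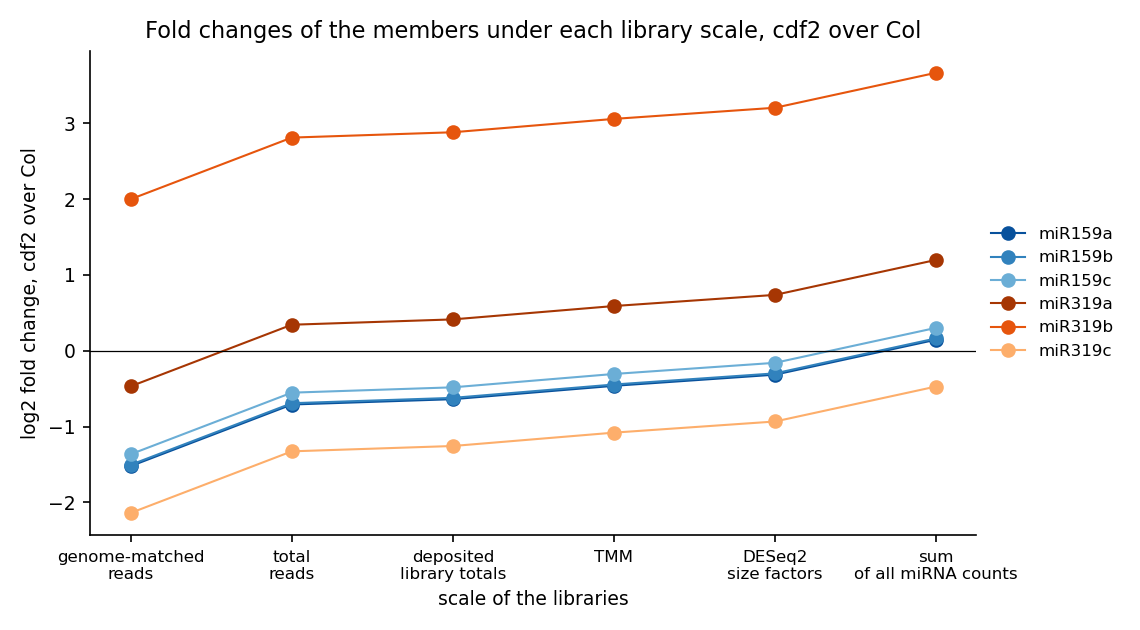
Log2 fold change, cdf2 over Col, of the 6 members under 6 ways of scaling the same counts. Changing the scale moves all members by the same amount, so that miR319b stays above 0 throughout while the miR159 members cross 0 when scaled by the sum of all miRNA counts.

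Ratios between members of the same library need no scale, and they separated the families in cdf2. There was 1 miR319 read per 13.5 miR159 reads in cdf2, against 1 per 33.7 in Col, so that the ratio of miR319 to miR159 was 2.49 times that in Col (2.05 to 3.03). This held for miR319a alone, whose ratio to miR159a was 2.07 times (1.66 to 2.59), to miR159b 2.05 times (1.63 to 2.58) and to miR159c 1.86 times that in Col (1.47 to 2.36). miR319b moved further, with a ratio to miR159a 11.5 times that in Col (6.07 to 23.9). For miR319c the intervals of its ratios to the miR159 members included 1.

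Within miR159 the balance of the members differed by no more than counting error. The ratio of miR159b to miR159a in cdf2 was 1.01 times that in Col (0.920 to 1.11), that of miR159c to miR159a 1.11 times (0.992 to 1.25), and that of miR159c to miR159b 1.10 times (0.966 to 1.25). These intervals still allow differences of up to 1.25 times. Within miR319 the balance differed in every pair. miR319b had 0.395 reads per miR319a read in cdf2 and 0.0714 in Col, a ratio 5.53 times that in Col (2.81 to 11.9). The ratio of miR319c to miR319a was 0.314 of that in Col (0.0970 to 0.897) and that of miR319c to miR319b 0.0568 (0.0151 to 0.203). In all, 9 of the 15 pairs of members had an interval that excluded 1 in cdf2, none of them within miR159.

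**Figure D4:**
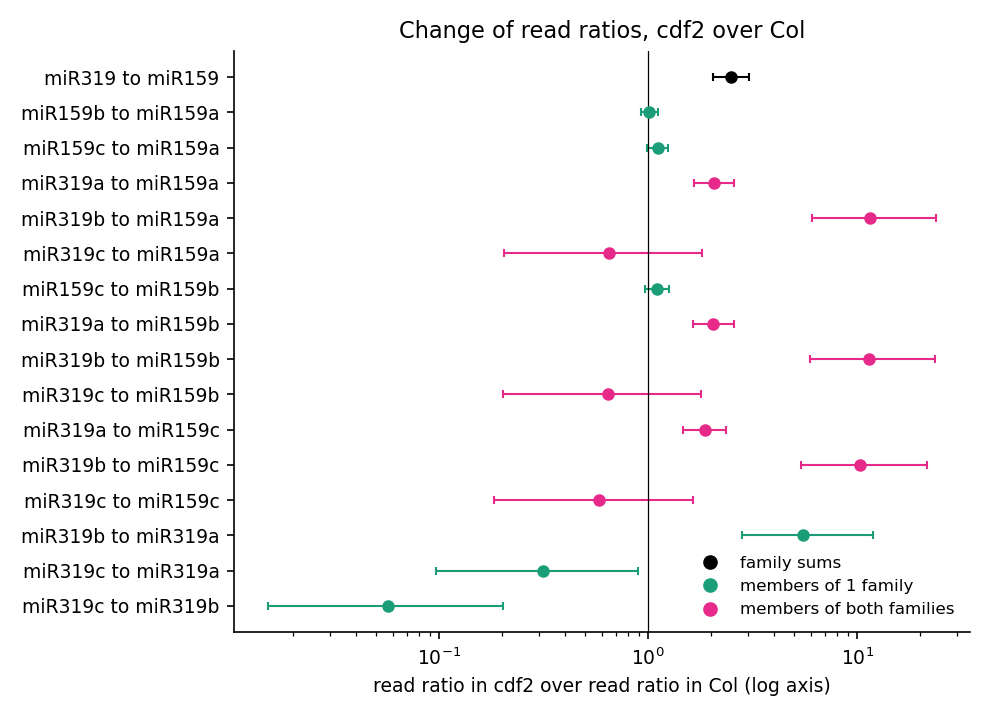
Ratio of reads between each of the 15 pairs of members in cdf2 divided by the same ratio in Col (log axis), with exact 95% counting intervals; library totals cancel. Pairs within miR159 lie near 1 (1.01 to 1.11), whereas all pairs with miR319b lie far from it.

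The make-up of the families shows the same values as shares. miR159a made up 58.1% of the miR159 reads in cdf2 and 59.2% in Col, miR159b 26.1% and 26.3%, and miR159c 15.8% and 14.5%. The miR159 shares were therefore close to each other in these libraries. miR319b made up 27.8% of the miR319 reads in cdf2 (22.8 to 33.2) and 6.15% in Col (3.11 to 10.7). miR319a held 70.2% in cdf2 and 86.0% in Col, and miR319c 2.01% in cdf2 and 7.82% in Col. miR319a and miR319b, with their one mature sequence, were also unlike each other in Col. Mature sequences were assigned to 231 of the 328 miRNAs listed for Col. Names annotated with both arms were left out, except miR159, so pairs among those were not compared. Of the 65 pairs found with equal mature sequences and at least 10 reads in the higher member, 39 had counts equal within 1%. Among these 65, the 16 pairs that differed at least 1.5-fold lay in miR319, miR169 and miR5635. Uneven counts in the families left out are not covered by this. miR319a and miR319b, with 154 and 11 reads, were the widest of the 65 pairs at 14.0-fold. How the split of reads between them was made bears on the difference of miR319b and was not tested.

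**Figure D5:**
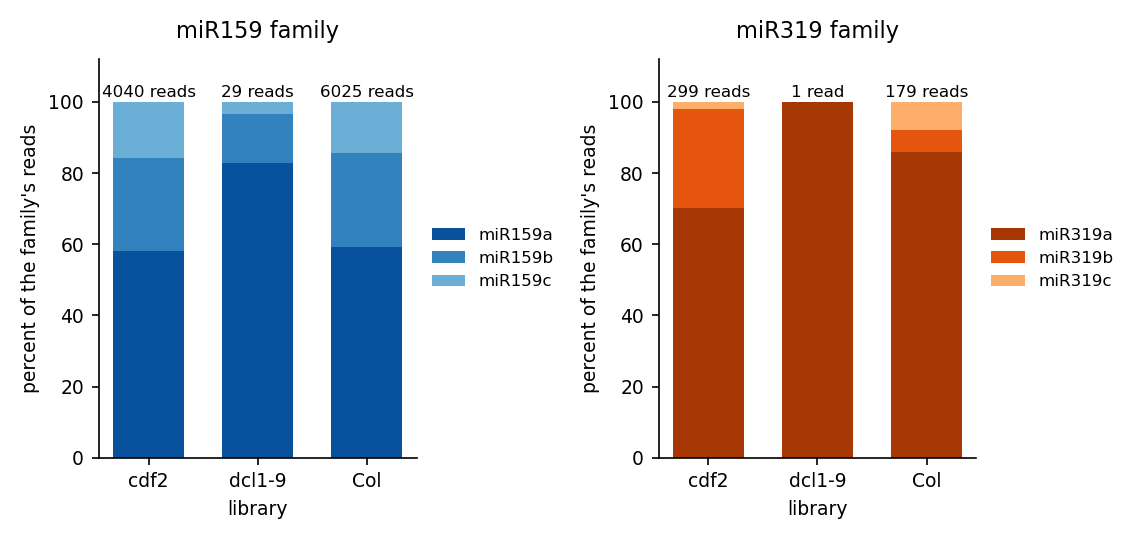
Share of each member in the reads of its family, in percent, for miR159 and for miR319 in the cdf2, dcl1-9 and Col libraries, with the family's reads given above each bar. miR159a takes 58.1% in cdf2 and 59.2% in Col, while miR319b takes 27.8% in cdf2 and 6.15% in Col; the dcl1-9 bars rest on 29 reads and 1 read.

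In dcl1-9 both families were nearly lost. miR159a fell 169-fold (114 to 265), miR159b fell 451-fold (176 to 1657) and miR159c fell 993-fold (178 to 39259; adjusted p = 2.99e-285, Fisher's exact test). miR319a fell 175-fold (31.0 to 6970; adjusted p = 3.14e-49, exact test). Both remaining members had no read in dcl1-9 and few in Col, so only bounds exist, taking 3 reads as the level in dcl1-9 and the Col reads as counted. On the scale of total reads miR319b fell at least 4.17-fold (adjusted p = 0.000323, exact test) and miR319c at least 5.31-fold (adjusted p = 3.39e-05, exact test). With the counting error of both libraries, the 95% interval starts lower, at 2.86-fold for miR319b and 3.78-fold for miR319c. Whether these members fell as far as the others was not detectable at this depth. The miR159 sum was 237-fold lower (165 to 354) and the miR319 sum 204-fold lower (36.1 to 8094).

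All 6 members were called lower in dcl1-9, as were 214 of 264 miRNAs tested (81.1%), so the call itself does not set them apart from the table. Over the members the median log2 difference was -7.43, against -4.41 over the 223 miRNAs with a fold and -4.67 over the 204 with at least 10 reads, all with miRNAs at 0 reads taken at their bound. The 3 miR159 members and miR319a lay below the median of the table, and miR319b (-2.06) and miR319c (-2.41), at their bounds, lay above it. In dcl1-9 the miRNA sum was itself far below that of Col, so scales that follow the miRNAs gave smaller differences. Over all 6 scales miR159a was lower by 4.09-fold to 169-fold, miR159b by 10.9-fold to 451-fold and miR159c by 24.0-fold to 993-fold. miR319a was lower by 4.24-fold to 175-fold, and on 3 scales, the miRNA sum, DESeq2 size factors and TMM, it was not called and miR319b and miR319c gave no value. On the other 3 scales the bound was 2.46-fold to 4.17-fold for miR319b and 3.13-fold to 5.31-fold for miR319c. In whole seedlings of either mutant, fewer cells that make a miRNA and less of it per cell cannot be told apart. The study names a potential effect of unlike developmental stages between cdf2 and Col, and used northern blots of inflorescences to minimize it. Such an effect on the cdf2 differences given here was not tested.

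The balance between members could hardly be followed in dcl1-9 at this depth. The 29 miR159 reads were 24 of miR159a, 4 of miR159b and 1 of miR159c, so that miR159a made up 82.8% of them, against 59.2% in Col. The ratio of miR159b to miR159a was 0.376 of that in Col (0.0946 to 1.10) and that of miR159c to miR159a 0.171 (0.00414 to 1.05). Both intervals include 1. The ratio of miR319 to miR159 was 1.16 times that in Col (0.0283 to 7.08), an interval too wide to compare the families. Of the 9 pairs of members given an interval in dcl1-9, none had one that excluded 1. Those with miR319b or miR319c, at 0 reads in dcl1-9, have an interval but no value.

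Other miRNAs of the same developmental network were taken from a list of 8, chosen for their known targets. miR164 acts on NAC genes of organ boundaries that TCP factors also regulate, miR396 acts on GRF genes of leaf growth and is raised by TCP4, and miR828 and miR858 act on other MYB genes. In cdf2, 3 of the 7 with reads fell, 0 rose and 4 were not called, next to 22.9% lower and 6.34% higher in the whole table. Members of a family need not be separate results in such counts. The counts of miR396a and miR396b were close to each other, as were those of miR164a and miR164b. miR396a had 7760 reads in cdf2 and 13338 in Col, 0.541 of its Col level (0.526 to 0.557), and miR396b was at 0.540. miR164c fell further, to 443 reads in cdf2, against 1654 in Col (0.249, 0.224 to 0.277), while miR164a and miR164b were both at 0.701 and short of the fold required. miR858, with 8 reads in cdf2 and 6 in Col, was not called, and miR828 had 0 reads in every library. In dcl1-9, 5 of the 6 tested fell, near the 81.1% of the whole table, for example miR164a with 94 reads in dcl1-9 and 10264 in Col (124-fold) and miR396a with 8 and 13338 reads (1898-fold). These directions are on the scale of total reads, and dividing by the sum of all miRNA counts would raise every log2 difference of cdf2 by 0.86, which is about the size of the fall of miR396a (log2 -0.89).

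The miRNAs most like each family were sought among 105 miRNAs with at least 100 Col reads, by the distance between their pairs of log2 differences (cdf2 over Col, dcl1-9 over Col, 1 read added), with miRNAs of equal counts in all 3 libraries taken once. Closest to the miR159 sum were miR157d (distance 0.198), miR169i (0.212) and miR1886.2 (0.266). miR169i and miR1886.2 had 0 reads in dcl1-9, against 189 and 222 in Col. Their dcl1-9 differences thus rest on the added read and the Col counts. miR169j, miR169l and miR169n had the same counts as miR169i and are not listed apart. miR157d, a miRNA of SPL genes, had 37309 reads in cdf2, 232 in dcl1-9 and 48802 in Col. Closest to the miR319 sum was miR843 (0.197), with 13.0 RPM in cdf2, 0 reads in dcl1-9 and 8.79 RPM in Col. The miR319 sum itself had 1 read in dcl1-9. Its log2 difference there was -7.67 as counted and -6.68 with the added read. Distances to the miR319 sum thus depend on the added read. The next were miR829.1 (0.620) and miR172d (0.634). This likeness is over 3 libraries only and is a description.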

How the data were processed

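Small RNA libraries of cdf2, dcl1-9 and Col seedlings, 1 per genotype, were analysed from the raw counts of reads per miRNA that the authors deposited. By the study's methods, Illumina reads were trimmed of adaptors and mapped with Bowtie to miRBase hairpins, and the submitters' processing notes name Bowtie and TAIR10. The authors also deposited, for each mutant, a table with RPM values, log2 fold changes and p-values. The fold changes and p-values were not used, and the RPM values served only to read the library totals behind them (14.4 M reads in cdf2, 9.44 M in dcl1-9 and 14.1 M in Col). In dcl1-9, 16 of the 308 joined names are later names. The number of sample columns left unmapped was 0.

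Here counts were divided by the total reads the study states, whereas its methods name perfectly aligned reads. Fold changes have exact conditional (Clopper-Pearson) 95% intervals, and ratios of ratios exact conditional odds-ratio intervals. Reads carry no molecular identifiers, so intervals and floors cover counting error only. Fisher's exact tests were two-sided, of a miRNA's reads against the rest of each library, adjusted by Benjamini-Hochberg over every miRNA with at least 1 read in either library. Counts of 0 were set at a floor of 3 reads, while counts of 1 to 3 give a ratio with its interval, where the plan had set them at the floor too. Alternatives were the sum of miRNA counts, the study's genome-matched reads, DESeq2 (1.42.0) size factors, TMM and an exact test of edgeR (4.0.16, R 4.3.3) with an assumed coefficient of variation of 0.2 or 0.4, the deposited totals, at least 10 reads, 1 read added, the member with the most reads, and equal rows of a family once. SciPy 1.17.1 was used for the other tests.

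All 6 members are named, then the 8 network miRNAs and the 3 miRNAs nearest to each family sum. The members, lists and tests were chosen with earlier results of these data known.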

Additional observations from a re-analysis of the deposited data

How the results depend on the processing

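No paired analysis was possible because each genotype has 1 library and the labels give no replicate numbers, and for the same reason no library was left out. Log2 differences are mutant over Col. Of 177 recomputed values, 121 did not change by the limits used, which were the direction and side of the threshold for tested values, 1.5 times for counts of calls and the counting interval for the rest. Among these 121, the ratio of miR319 to miR159 in dcl1-9 over Col turned from 1.16 to 0.966 with the most-read member, inside its interval. Ratios between members do not depend on the scale, since totals cancel.

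In cdf2 against Col, dividing by the sum of all miRNA counts turned miR159a to 0.15, miR159b to 0.16, miR159c to 0.30 and the miR159 sum to 0.17, and raised miR319a to 1.20 and the miR319 sum to 1.49. The genome-matched reads, whose meaning is doubtful because they are fewer in Col than the miRNA counts, gave values below Col for miR319a (-0.47) and the miR319 sum (-0.18), and -1.36 for miR159c, -2.14 for miR319c and -1.49 for the miR159 sum. DESeq2 size factors gave -0.32 for miR159a, -0.30 for miR159b, -0.29 for the miR159 sum, 0.74 for miR319a and 1.03 for the miR319 sum. TMM gave -0.46, -0.45, -0.43 for miR159a, miR159b and the miR159 sum, and 0.59 for miR319a. The deposited totals gave -0.61 for the miR159 sum, and the most-read member alone 0.34 for miR319. With edgeR's exact test the log2 differences stayed at -0.71 for miR159a and -0.69 for miR159b, but the adjusted p was 0.345 and 0.357 at an assumed variation of 0.2 and 1 for both at 0.4. miR319b stayed at 2.81 with an adjusted p of 0.342 at 0.4. Over the whole table, 65 lower and 18 higher miRNAs became 6 and 89 with the miRNA sum, 160 and 4 with genome-matched reads, 23 and 48 with DESeq2 size factors, 43 and 30 with TMM, 5 and 5 with edgeR at 0.2, and 0 and 0 at 0.4, where 9 had an unadjusted p under 0.05. Taking equal rows of a family once left 10 higher.

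In dcl1-9 against Col, the miRNA sum, DESeq2 size factors and TMM gave miR319a -2.72, -2.56 and -2.08 (adjusted p 0.0563, 0.109 and 0.254, Fisher's exact test), the miR159 sum -3.15, -2.99 and -2.51, and the miR319 sum -2.94, -2.78 and -2.30. Under these 3 scales miR319b and miR319c gave no value, since their floor lay above Col. The deposited totals gave -7.12 for the miR159 sum. The 214 lower calls became 70, 66 and 54 and the 0 higher calls 28, 29 and 41 with the miRNA sum, DESeq2 size factors and TMM. The ratio of miR319b to miR319a gave no value in dcl1-9, with 0 and 1 reads. The changes between scales follow from the factor each applies to all counts. Depth limits miR319b and miR319c in Col and every member in dcl1-9.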
